A study of Macaca mulatta with 2 samples.

Results

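The glutathione transferases, glutathione peroxidases and peroxiredoxins were examined in primary Sertoli cell cultures of the rhesus macaque (Macaca mulatta), the cells that line the seminiferous tubule and nurse the germ cells. The pubertal cultures were made from testes of males aged 18 to 22 months. Their puberty was brought on early by pulses of gonadotropin-releasing hormone (GnRH), 2 min long and 3 h apart, at a rate of 0.15 µg/min for 4 to 5 weeks. The infant cultures were made from testes of males younger than 3 months, for which no GnRH is recorded. For the last 24 h all 4 cultures received FSH (follicle-stimulating hormone, 5 ng/ml) together with testosterone (100 nM), and cultures without these hormones are not analysed here. Age and GnRH differ together between the stages and cannot be told apart. Each of 2 two-colour Agilent arrays carried the RNA of 1 pubertal and 1 infant culture. The pubertal RNA was in Cy5 on array 1 and in Cy3 on array 2.

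Members were all non-control spots whose gene name in the scanner files is that of a soluble transferase of the alpha, mu, pi, theta, omega, kappa or zeta class, a microsomal transferase, a glutathione peroxidase or a peroxiredoxin. This gave 64 spots of 46 probes for 33 genes, out of 43376 spots, 41000 probes and 18832 gene symbols. The names are those of a human array design, and all 33 stood in the macaque RefSeq gene table, 31 by symbol and 2 (GSTA5 and GSTT2) as a synonym. The probes are human 60-base sequences, so macaque RNA was read through human probes, and no macaque genome was used here to count mismatches. Of the 46 probes 42, for 32 genes, entered the test, and all 42 were well above background in all 4 channels. The probe of GPX6 and single probes of GSTM3, GSTT2 and PRDX3 were too dim and were not tested.

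Glutathione is a small cysteine-containing peptide. Glutathione transferases join it to reactive electrophiles, such as the aldehydes left by lipid peroxidation, and several of them also bind or isomerise steroids. Glutathione peroxidases use it to reduce hydrogen peroxide and lipid hydroperoxides, many through a selenocysteine, while peroxiredoxins reduce peroxides through a cysteine that is mostly recharged by thioredoxin. Alpha-class transferases are known as products of steroid-making and liver cells, and Sertoli cells of the rat are known to make several transferases.

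No member differed between pubertal and infant cultures by limma's test. Over all 25768 tested probes 0% passed at a Benjamini-Hochberg adjusted p under 0.05, and 0 of the 42 member probes did. At an unadjusted p under 0.05 limma gave 1043 of all probes, or 4.05% (2.25% higher and 1.79% lower), and 3 of the 42 members (7.14%), those of GSTT2, MGST1 and GSTA4, all lower in pubertal cultures. The same 3 probes were, under the main processing, the members with a size of at least 0.5 in the same direction on both arrays. Of all probes 1.59% had that size as lower and 2.01% as higher. This set depends on the processing. An offset of 0 added GSTO2 and the GSTM4 probe A_24_P396660. The scanner's processed signals added the same probes but left GSTA4 at -0.46 on array 1. The lowest adjusted p of a member was 0.901, for GSTT2. All log2 ratios below are pubertal over infant, and an SE is limma's moderated standard error over n = 2 array pairs.

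The members more often had lower than higher ratios on both arrays. Of the 42 probes 16 (38.1%) were below 0 on both arrays, against 21.9% of all tested probes, and 4 (9.52%) were above 0 on both, against 23.4% of all. The same sign was thus shared by 47.6% of members and 45.3% of all probes. The other 22 (52.4%) had opposite signs, as did 54.7% of all. By gene, with the brightest probe of each, 4 of 32 were above 0 and 12 below 0 on both arrays. The counts depend on the scaling of the arrays. With the median of each array set to 0 in place of loess, 2 members (4.76%) were above 0 on both, against 11.6% of all. Below 0 on both were 5 members (11.9%), against 10.3% of all, so the excess of lower members was then small. Medians over all tested probes were then 0.57 on array 1 and -0.37 on array 2. Taken relative to those medians, 3 members were above and 8 below on both arrays, where 15% of all probes lay on each side. The median ratio of the members was -0.09 on array 1 and -0.30 on array 2, beside 0.02 and -0.01 over all tested probes. The member probes were also brighter than most, with a median average log2 intensity of 11.83 beside 8.73 over all tested probes, 14.7% of which lay above the member median. The part of brightness in these shares was not tested. These are descriptions, since members were chosen by name with earlier results of these arrays known.

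The 2 arrays did not rank the members alike. Across the 42 probes, which share both arrays and are not independent, Pearson's r between the arrays was -0.21 and Spearman's rho -0.23, and across all tested probes r was -0.07 and rho -0.11. Opposite ratios mean that the same dye was brighter on both arrays. Of the members 15 (35.7%) were brighter in Cy5 on both arrays, against 29.2% of all probes, and 7 (16.7%) were brighter in Cy3, against 25.4%. A dye effect and a difference between the animals of the 2 pairs cannot be told apart here.

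**Figure D1:**
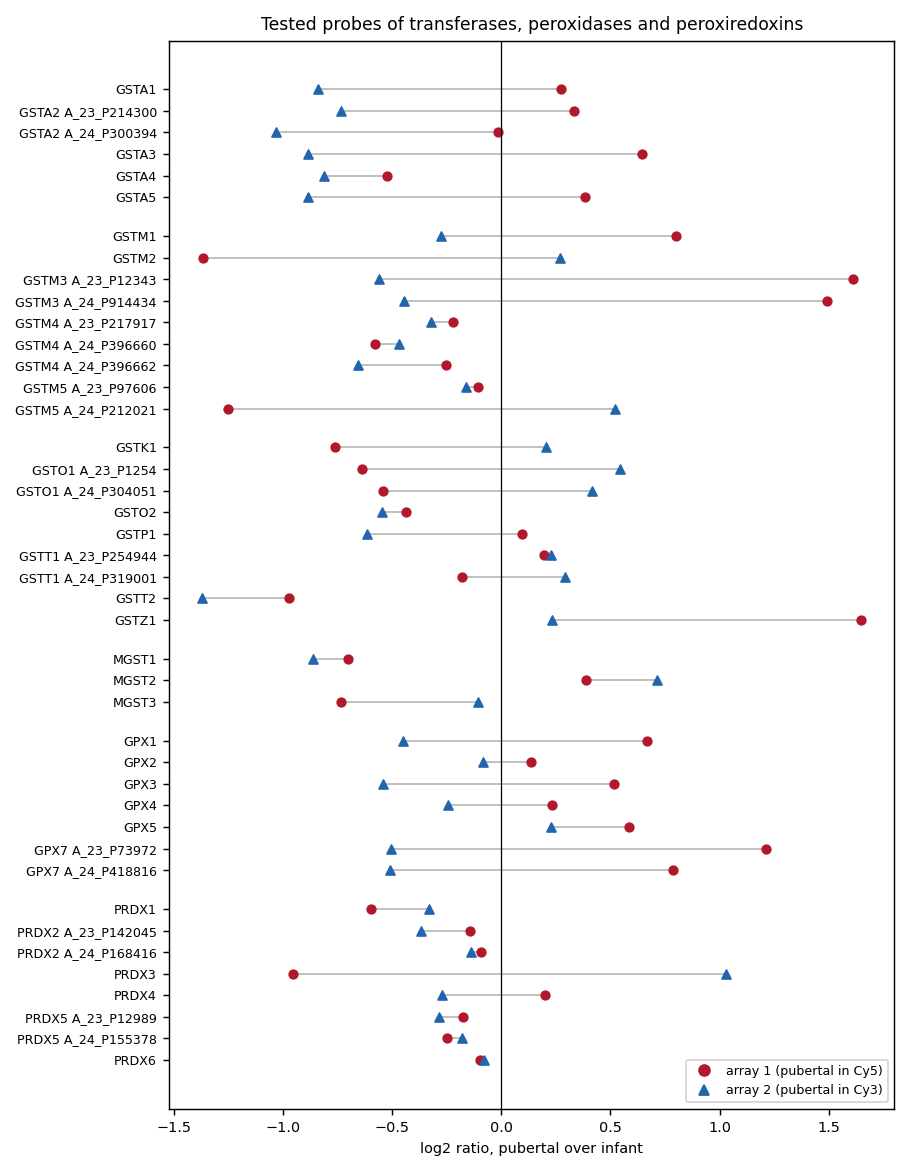
Log2 ratio of pubertal over infant for each of the 42 tested member probes on array 1 (circles) and array 2 (triangles), grouped by class, with a grey line joining the values of a probe. The 3 probes of GSTT2, MGST1 and GSTA4 have both values at or below -0.5, and 22 probes have values on opposite sides of 0, after loess scaling.

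**Figure D2:**
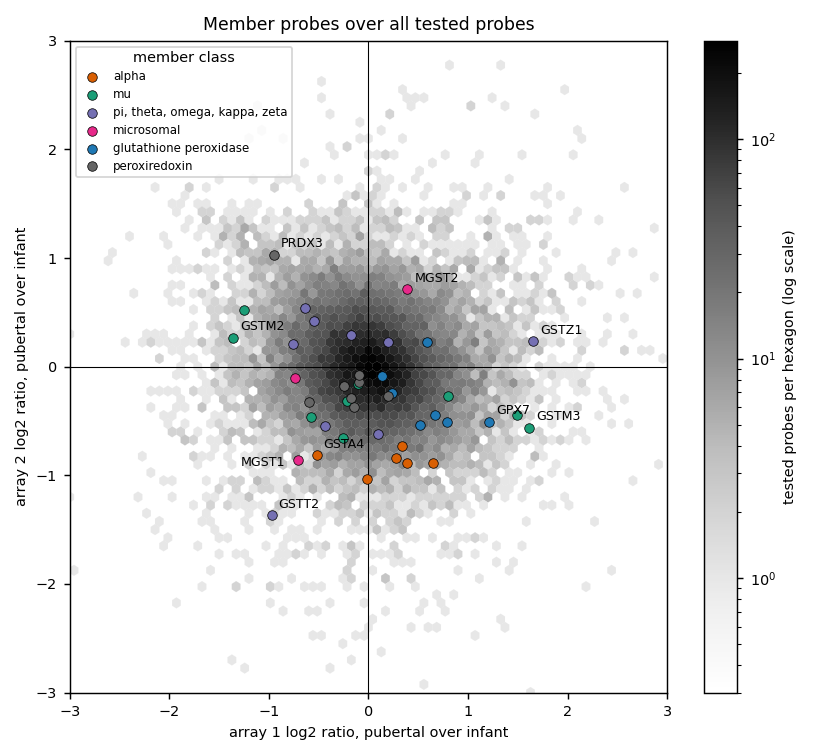
Ratio on array 2 against ratio on array 1 (log2, pubertal over infant) for the member probes, coloured by class, over a density (grey scale, logarithmic) of those of the 25768 tested probes that lie between -3 and 3 on both axes. GSTT2, MGST1 and GSTA4 lie at the lower left, and GSTM3 and GPX7 at the lower right, where Cy5 was the brighter dye on both arrays.

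Theta-class transferases act on small halogenated and sulphate-bearing substrates. GSTT2 had normalised intensities of 1064 and 1006 in the pubertal cultures of arrays 1 and 2, against 2088 and 2598 in the infant cultures. The pubertal and infant values did not overlap. Here and below, such separation only describes 2 against 2 values, set side by side across arrays and dyes. Its share over all probes was not counted. GSTT2 had ratios of -0.97 and -1.37, a mean of -1.17 ± 0.25 (SE), or 0.444-fold, with a limma unadjusted p of 0.00501 and an adjusted p of 0.901. Its probe (A_23_P109427) lies at chr22:22650475-22650534 of the human build hg17, on the plus strand. The second GSTT2 probe, not well above background in any channel, has no ratio given. At an offset of 0, and with the scanner's own processed signals, GSTT2 was at least 2-fold lower on both arrays, at -1.03 and -1.43 and at -1.10 and -1.44. With median centring it was at -0.06 and -1.98, so that array 2 then carried nearly all of the difference. With the main processing 0 of 42 members were that far apart on both arrays in either direction, where 0.299% of all probes were lower and 0.303% higher. Its paralogue GSTT1 was dim. The GSTT1 probe A_23_P254944 had 126 and 109 in pubertal cultures, against 110 and 92.9 in infant cultures, with ratios of 0.20 and 0.23, and the other GSTT1 probe had ratios of -0.18 and 0.29.

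Microsomal transferases are membrane proteins unrelated to the soluble classes, and all 3 had the same sign on both arrays under loess, though all 3 were opposite with median centring. MGST1, an abundant enzyme of the endoplasmic reticulum and outer mitochondrial membrane, had 9353 and 7779 in pubertal cultures, against 15226.5 and 14130 in infant cultures. All pubertal values were below all infant values. The ratios were -0.70 and -0.86 (mean -0.78 ± 0.24, SE, 0.582-fold), with a limma unadjusted p of 0.0213 and an adjusted p of 1.00. The probe, shown since its human sequence read these values in macaque RNA, lies at chr12:16408174-16408233 (hg17, plus strand).
MGST1: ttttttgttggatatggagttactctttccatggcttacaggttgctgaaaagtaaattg
MGST2, which can join glutathione to a leukotriene precursor, was the microsomal enzyme on the other side. It had 6905 and 9743 in pubertal cultures, against 5274 and 5948 in infant cultures, again without overlap. The ratios were 0.39 and 0.71, a mean of 0.55 ± 0.25 (SE), with a limma unadjusted p of 0.0757. MGST3, a relative with peroxidase activity, had 26850 and 24444 in pubertal cultures, against 44649 and 26342 in infant cultures. Its ratios of -0.73 and -0.11 were lower on both arrays, but the size rested on array 1.

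Alpha-class transferases lie side by side on human chromosome 6 and were lower in the pubertal culture on array 2 for all 6 probes, under loess, the scanner's scaling and median centring alike. On array 1 loess gave 4 higher and 2 lower, and median centring gave 6 higher and 0 lower. The 6 alpha probes include 2 of GSTA2, and 13184 of all 25768 tested probes were below 0 on array 2 under loess. GSTA4, known for the conjugation of the lipid aldehyde hydroxynonenal, was the alpha enzyme with lower ratios on both arrays at a size of 0.5 or more under the main processing. GSTA4 had 2997 and 1570 in pubertal cultures, against 4301 and 2759 in infant cultures. The groups overlapped, since the pubertal value of array 1 exceeded the infant value of array 2. Within each array the pubertal value was lower under loess. The ratios were -0.52 and -0.81 (mean -0.67 ± 0.25, SE, 0.630-fold), with a limma unadjusted p of 0.0407 and an adjusted p of 1.00. With median centring GSTA4 was at 0.55 and -1.44, or at -0.02 and -1.07 relative to the medians of all probes there. Its probe (A_23_P110941) lies at chr6:52951097-52951156 (hg17, minus strand).

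GSTA1 and GSTA2, the main alpha enzymes of liver and of steroid-making cells, GSTA3, which isomerises steroid intermediates, and GSTA5 were opposite on the arrays, apart from one GSTA2 probe. GSTA1 was at 0.27 and -0.84 and GSTA3 at 0.64 and -0.88. GSTA5 was at 0.38 and -0.88. One GSTA2 probe was at 0.33 and -0.73 and the other (A_24_P300394) at -0.01 and -1.03, with a saturated pubertal spot on array 1. GSTA3 had 30005 and 10959 in pubertal cultures, against 19201 and 20219 in infant cultures, so that the pubertal values lay on both sides of the infant ones. The probes of GSTA2 and GSTA5 are nearly the same sequence, shown here because transcripts of either gene could bind both. They lie at chr6:52724354-52724413 and chr6:52805636-52805695 (hg17, minus strand). Capitals mark the bases at which the 2 probes differ.
GSTA2: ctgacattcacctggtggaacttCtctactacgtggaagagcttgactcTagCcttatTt
GSTA5: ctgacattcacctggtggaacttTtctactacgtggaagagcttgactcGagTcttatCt
They share 56 of 60 bases, and, counted from 1 at the 5′ end of the probe, differ by C24T, T50G, C53T and T59C from GSTA2 to GSTA5.

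Mu-class transferases form a tight cluster of genes on human chromosome 1, and its members differed widely in their ratios. GSTM3, a mu enzyme known from testis and brain, had 16949 and 8000 in pubertal cultures, against 5546 and 11803 in infant cultures by probe A_23_P12343. The pubertal culture was the brighter on array 1 and the dimmer on array 2, with ratios of 1.61 and -0.56. The second tested GSTM3 probe gave 1.49 and -0.44, so both probes showed the same split between the arrays. GSTM2 ran the other way, with 397 and 634 in pubertal cultures, against 1022 and 527 in infant cultures, and ratios of -1.36 and 0.27. One GSTM5 probe (A_24_P212021) resembled GSTM2, at -1.25 and 0.52, while the other gave -0.11 and -0.16. These 2 GSTM5 probes do not give the same reading of the gene. Values of opposite members in full were chosen after they were seen.

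GSTM4 was the mu gene with lower ratios on both arrays for every probe under loess. Its 3 probes gave -0.22 and -0.32, -0.58 and -0.47, and -0.25 and -0.65. The probe A_24_P396660 had 170 and 178 in pubertal cultures, against 254 and 246 in infant cultures, with a limma unadjusted p of 0.0793 for its mean of -0.52 ± 0.24 (SE). An offset of 0 gave this probe -0.81 and -0.62, and the scanner's processed signals gave it -0.81 and -0.67. With median centring 2 of the 3 were above 0 on array 1, at 0.14 and 0.13, which is -0.43 for each relative to the median of all probes there. The probe A_23_P217917 carries the name GSTM4 but lies 1409 bases from the GSTM1 probe and 31623 bases from the nearest other GSTM4 probe on hg17. Sequences of 3 mu probes show how close the targets are. They lie at chr1:109926019-109926168 (GSTM2, plus strand), chr1:109992176-109992322 (GSTM3, minus strand) and chr1:109945123-109945182 (named GSTM4, plus strand) of hg17. Capitals mark a stretch of 27 bases that is alike but not identical in the 3 probes.
GSTM2: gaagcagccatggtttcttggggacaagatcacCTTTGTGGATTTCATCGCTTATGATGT
GSTM3: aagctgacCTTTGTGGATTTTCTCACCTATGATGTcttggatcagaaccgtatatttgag
GSTM4: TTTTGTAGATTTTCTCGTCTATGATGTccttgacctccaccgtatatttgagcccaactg
Within the stretch GSTM2 and GSTM3 share 23 bases, GSTM3 and GSTM4 share 23, and GSTM2 and GSTM4 share 21. Despite that likeness GSTM2 and GSTM3 had opposite ratios on each array. The coordinates of GSTM2 and GSTM3, like those of 10 of the 46 member probes in all, span more than the 60 bases of the probe.

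GSTM1 and GSTP1 were each printed in 10 spots per array, which gives the spread of the measurement within an array. GSTM1, known for a gene deletion common in people, averaged 0.80 ± 0.057 (SD over 10 spots) on array 1 and -0.27 ± 0.070 (SD over 9 spots) on array 2. GSTP1, the pi-class enzyme widespread outside the liver, averaged 0.10 ± 0.039 (SD over 6 spots) and -0.62 ± 0.049 (SD over 9 spots). On array 1 the 6 GSTP1 spots used ran from 0.02 to 0.13. The 4 left out as outliers ran from 0.003 to 0.26, so the SD there is that of the narrower set. Each gene's gap between arrays was many times the spread of its spots, so repeat spots do not stand for repeat cultures. GSTP1 was saturated in Cy5 in 9 spots on array 1 and 7 on array 2, and a saturated spot reads below its true value. The part of saturation in the spread of the GSTP1 spots was not tested.

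**Figure D3:**
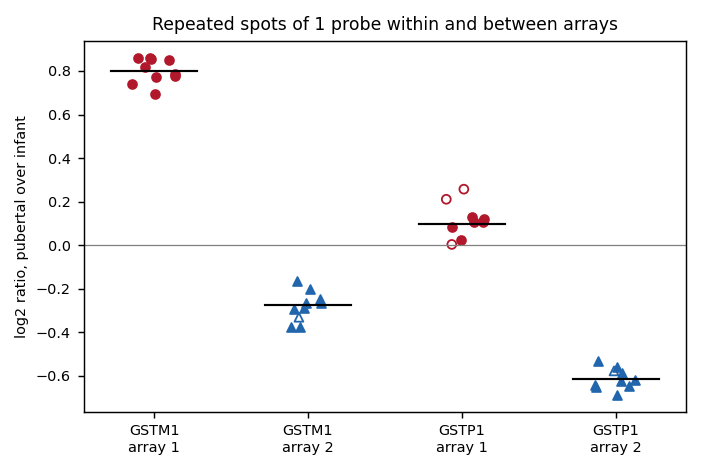
Log2 ratio of pubertal over infant in each of the 10 repeated spots of GSTM1 and of GSTP1 on array 1 (circles) and array 2 (triangles). Open symbols are spots with an outlier flag that were left out, and bars are means of the spots used, which are 0.80 and -0.27 for GSTM1 and 0.10 and -0.62 for GSTP1.

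GSTZ1, which isomerises maleylacetoacetate in tyrosine breakdown, was higher in the pubertal culture on both arrays under loess, but mainly on array 1. With median centring GSTZ1 was at 2.43 and -0.34, or at 1.86 and 0.03 relative to the medians of all probes there. The values that follow are those under loess. GSTZ1 had 1337 and 1137.5 in pubertal cultures, against 426 and 968 in infant cultures. No infant value reached a pubertal one, and the infant cultures differed more from each other than the pubertal cultures did. The ratios were 1.65 and 0.23, a mean of 0.94 ± 0.39 (SE), with a limma unadjusted p of 0.0573. Its probe, shown as that of the soluble transferase with the highest mean ratio, lies at chr14:76867187-76867246 (hg17, plus strand).
GSTZ1: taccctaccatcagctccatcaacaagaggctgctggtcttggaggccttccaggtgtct
GSTK1, a transferase of mitochondria and peroxisomes, was at -0.76 and 0.21.

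Omega-class enzymes reduce dehydroascorbate and other oxidised substrates through a cysteine. GSTO1 was at -0.64 and 0.54 by one probe and -0.54 and 0.42 by another that overlaps it by 37 bases. GSTO2, its neighbour on human chromosome 10, was dim and lower on both arrays, with 84.7 and 96.8 in pubertal cultures, against 115 and 141 in infant cultures. Its ratios were -0.44 and -0.54 (mean -0.49 ± 0.24, SE), with a limma unadjusted p of 0.0941. The size depends on the background step. An offset of 0 in place of 50 gave -0.93 and -1.08, and the scanner's processed signals, which also differ in dye scaling, gave -0.96 and -1.59. The 2 omega genes are close in sequence, as 1 probe of each shows, at chr10:106015855-106015914 and chr10:106047336-106047395 (hg17, plus strand). Capitals mark the bases that differ where the 2 probes overlap.
GSTO1: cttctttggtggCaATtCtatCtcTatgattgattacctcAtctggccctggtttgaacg
GSTO2: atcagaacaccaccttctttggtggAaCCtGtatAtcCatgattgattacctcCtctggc
Of 47 aligned bases 40 are the same. The GSTO1 and GSTO2 ratios had the same sign on array 1 and opposite signs on array 2.

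**Figure D4:**
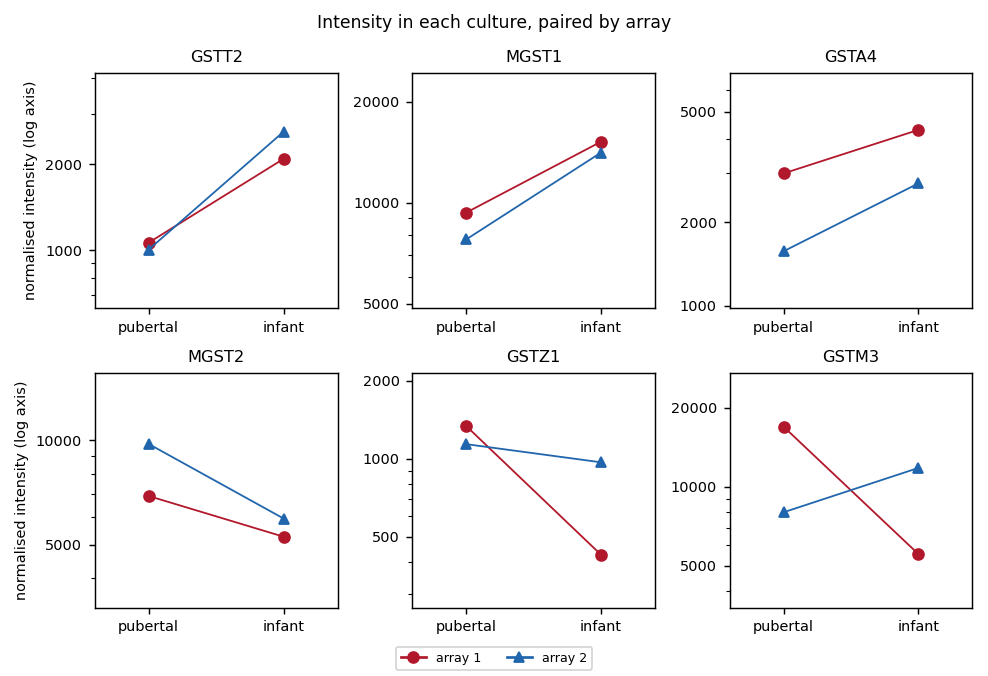
Normalised intensity (logarithmic axis) of 6 transferase probes in the pubertal culture (left) and the infant culture (right) of array 1 (circles) and array 2 (triangles), with a line joining the 2 cultures of an array. After loess scaling, both lines climb to the infant side for GSTT2, MGST1 and GSTA4. For MGST2 and GSTZ1 both descend to it, and for GSTM3 (A_23_P12343) they cross.

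Glutathione peroxidases were higher in the pubertal culture on array 1 for all 7 tested probes, and lower on array 2 for 6 of them. The same counts were found with the scanner's scaling, and median centring gave 7 higher on array 1 and 7 lower on array 2, or 6 and 5 relative to the medians of all probes there. In 6 of the 7 Cy5 was thus the brighter dye on both arrays, against 29.2% of all tested probes. The 7 include 2 probes of GPX7. Under loess 13556 of all 25768 tested probes were above 0 on array 1 and 13184 were below 0 on array 2. GPX7, an enzyme of the endoplasmic reticulum, had 2769 and 2754 in pubertal cultures, against 1194 and 3908 in infant cultures by probe A_23_P73972. The pubertal cultures were nearly equal and lay between the infant ones, with ratios of 1.21 and -0.51, and its second probe gave 0.79 and -0.51. GPX1, the cytosolic selenoenzyme, was at 0.67 and -0.45, and GPX3, the secreted plasma form, at 0.52 and -0.54. GPX4, which reduces phospholipid hydroperoxides and is a structural protein of sperm, was at 0.23 and -0.25. It had 4260 and 3696 in pubertal cultures, against 3622 and 4380 in infant cultures, and its mean ratio was -0.01 ± 0.26 (SE). GPX2, the form of the gut lining, was dim at 0.14 and -0.08. GPX5, a form without selenium known from the epididymis, was the peroxidase with a positive ratio on both arrays under loess, at 0.58 and 0.23, and had -0.15 on array 2 with median centring. GPX5 had 461 and 309 in pubertal cultures, against 308 and 264 in infant cultures. GPX6 was not well above background in any channel.

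Of the 8 tested peroxiredoxin probes 6 were below 0 on both arrays under loess, against 5 with the scanner's scaling, 0 with median centring and 1 relative to the median of all probes there. Under loess 21.9% of all tested probes were below 0 on both arrays, and with median centring 10.3%. The 8 include 2 probes of PRDX2 and 2 of PRDX5. By gene, with the brightest probe of each, 4 of 6 peroxiredoxins were below 0 on both arrays under loess. PRDX1, the main cytosolic form, had 23395 and 24860 in pubertal cultures, against 35362 and 31236 in infant cultures. The infant values were all above the pubertal ones, and the ratios were -0.60 and -0.33 (mean -0.46 ± 0.25, SE), with a limma unadjusted p of 0.116. PRDX2, the form abundant in red cells, was at -0.14 and -0.37 and at -0.09 and -0.14 by its 2 probes. PRDX5, found in several compartments, was at -0.18 and -0.29 and at -0.25 and -0.18 by 2 probes that overlap. PRDX6, which has a single catalytic cysteine and is recharged by glutathione, was at -0.10 and -0.08 with Cy5 spots saturated on both arrays. PRDX4, the form of the endoplasmic reticulum, was at 0.20 and -0.27.

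PRDX3, the mitochondrial peroxiredoxin, was the member with the largest opposite ratios by the smaller of its 2 sizes, while GSTM3 had the wider gap between arrays. It had 3477 and 3684 in pubertal cultures, against 6730 and 1802 in infant cultures. The pubertal cultures were alike and the infant cultures lay on both sides of them, giving -0.95 and 1.03. No member had opposite ratios of at least 1 on both arrays, as 0.683% of all probes did, and 8 of 42 (19%) had opposite ratios of at least 0.5 on both, against 5.14% of all.

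The authors' deposited table of log2 ratios held 9 member probes of 7 genes, or 19.6% of the member probes, where it held 11.8% of all probes. All 9 had a size of at least 1 in one or both columns. How the probes of that table were chosen is not given in the sources used here. The share of all its probes with that size was not counted. In the authors' deposited table GSTT2 was at -1.12 and -1.42, GSTO2 at -0.97 and -1.59 and GSTZ1 at 1.91 and 0.19. The other 6 probes in the authors' deposited table, of GSTM3, GPX7, GSTM2 and GSTM5, had opposite signs in its 2 columns.

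Genes of pathways around these enzymes, and relatives outside the name rule, were taken from lists of 89 names, of which 71 were tested. None passed limma's test, 10 were above 0 on both arrays, 26 below 0 on both and 35 opposite. The shares of all genes given here are over 19615 probes, 1 per gene symbol plus every probe without a symbol. The symbols tested numbered 14205. Of the 19615, 23.5% were above and 21.9% below 0 on both arrays. With median centring the counts among the 71 were 5 above and 6 below, where 11.6% of all tested probes were above and 10.3% below. At an unadjusted p under 0.05 limma gave 8 of the 71 genes, against 4.4% of all genes. These 8 were also those with a size of at least 0.5 in the same direction on both arrays, 3 higher and 5 lower, where 2.16% of all genes were higher and 1.75% lower by that rule. At least 2-fold on both arrays were 0 genes higher and 1 lower, where 0.342% and 0.352% of all genes were.

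Genes of the thioredoxin and glutaredoxin system, only part of which recharges the peroxiredoxins, numbered 3 above and 7 below 0 on both arrays of 15 tested. TXNRD1, the cytosolic thioredoxin reductase, had 541 and 1422 in pubertal cultures, against 1566 and 3132 in infant cultures. Within each array the pubertal value was the lower, at -1.53 and -1.14, with a limma adjusted p of 0.838. TXN2, the mitochondrial thioredoxin, was at -0.96 and -0.79, and SESN2, a stress-induced sestrin, at -0.70 and -1.72. GLRX5, a mitochondrial glutaredoxin of iron-sulphur cluster assembly, was on the other side with 14971 and 13231 in pubertal cultures, against 6256 and 7343 in infant cultures. The groups did not overlap, and its ratios were 1.26 and 0.85, with a limma adjusted p of 0.931. SRXN1, which repairs over-oxidised peroxiredoxins, was at -0.05 and -2.45, so that array 2 alone carried its difference.

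Of 20 tested genes of glutathione synthesis and recycling, 3 were above and 8 below 0 on both arrays. GCLM, the modifier subunit of the enzyme for the first step of synthesis, was at -0.68 and -1.58, and GCLC, the catalytic subunit, at 0.12 and -0.56. CHAC2, which breaks glutathione down, was at 0.66 and 0.66. GSR, glutathione reductase, was at -0.15 and -2.49, SLC7A11, the cystine importer, at 0.03 and -2.36, and CHAC1, a stress-induced relative of CHAC2, at -0.20 and -3.15. In each of these last 3 the infant culture of array 2 was the bright one, as for GSR with 542 and 343 in pubertal cultures, against 602 and 1925 in infant cultures.

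Of 9 tested regulators around KEAP1 and NRF2, the pair that controls many of these genes, 1 was above and 3 below 0 on both arrays. BACH1, a repressor at the same DNA elements, was at -0.78 and -0.66. MAFK, a small partner factor, was at 0.65 and 0.59, with a mean of 0.03 for a further probe. NFE2L2, which encodes NRF2, was at 0.41 and -0.26 and KEAP1 at -0.30 and -0.41. Of the 5 superoxide dismutase and catalase genes 2 were below 0 on both arrays, and of 12 tested genes of selenoprotein synthesis 2 were above and 1 below. Of 10 tested relatives outside the name rule, 1 was above and 5 below.

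**Figure D5:**
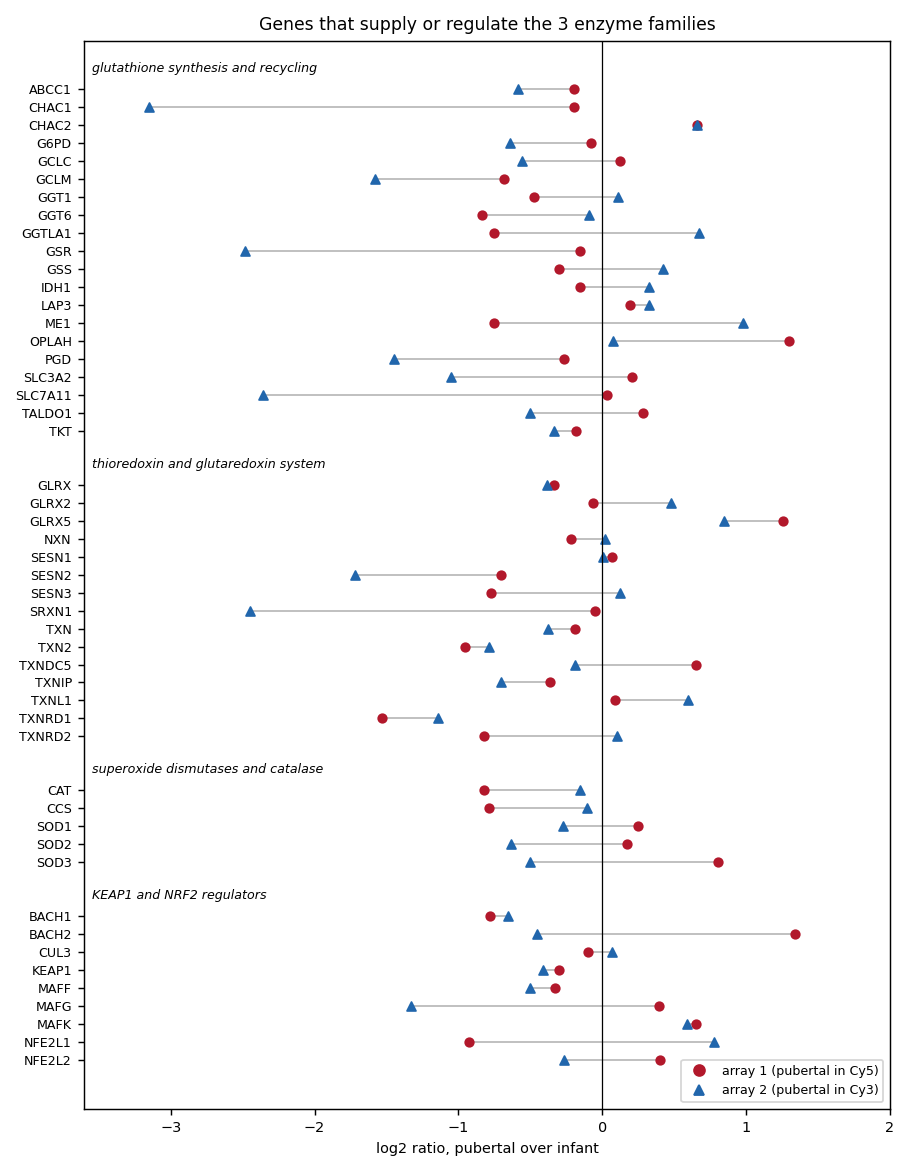
Log2 ratio of pubertal over infant on array 1 (circles) and array 2 (triangles) for 49 genes of pathways around the 3 enzyme families, in 4 blocks, after loess scaling. TXNRD1 and TXN2 have both values below -0.5 and GLRX5 has both above 0.5, while CHAC1, GSR, SRXN1 and SLC7A11 have values near 0 on array 1 and below -2 on array 2.

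The cultures held markers of other cells beside those of Sertoli cells. Of 20 Sertoli markers 17 were well above background in all 4 channels and GATA1 in none. Their summed intensities were 192626 and 187920 in pubertal cultures, against 166764 and 154040 in infant cultures. Among the Sertoli markers BEX2, INHA, INHBB and TF had a saturated spot, which limits these sums. Of 15 tested germ cell markers 13 were above 0 and 0 below on both arrays (medians 0.60 and 0.47). Among these 13, KIT, MAGEA4, SALL4 and SYCP3 were well above background in only 3 channels. A probe bright in 1 stage alone could enter the test, so that count is no support for a difference. Of 15 stromal markers 0 were above and 11 below (medians -1.28 and -0.43). Of all genes 23.5% were above and 21.9% below 0 on both arrays. Summed germ cell markers were 4939 and 3994 in pubertal cultures, against 2821 and 2956 in infant cultures, with LIN28, LIN28B and PIWIL1 above background in no channel. Of 7 tested Leydig cell markers, the steroid-making cells outside the tubule, 1 was above and 2 below 0 on both arrays (medians -0.0004 and -0.20, and 0.47 for the mean ratios). Their summed intensities were 133238 and 159555 in pubertal cultures, against 130700 and 87020 in infant cultures, with LHCGR above background in no channel. CYP11A1, HSD3B1, HSD3B2 and STAR had a saturated spot, so saturation limits these Leydig sums. In Cy5 they read 31377, 32359, 32105 and 30895 in the pubertal culture of array 1. In the infant culture of array 2, also in Cy5, they read 17846, 19425, 10188 and 32640. The Leydig markers CYP17A1, at -2.12 and -1.45, and DLK1, at -1.32 and -1.99, were the 2 below 0, and STAR was at 1.14 and -1.20 with a saturated spot. Above and below 0 on both arrays were 2 and 2 of 6 peritubular muscle markers, 2 and 1 of 6 macrophage, 1 and 0 of 2 endothelial, and 2 and 1 of 3 erythroid markers. Summed stromal markers were 66677 and 104067 in pubertal cultures, against 140615 and 113881 in infant cultures. VIM alone, with a saturated spot, gave 31920 and 53753 of the pubertal sums and 53916 and 37679 of the infant sums. In bulk RNA fewer cells of a type and less RNA per cell cannot be told apart, and the part of cell makeup in the ratios of the transferases was not tested. Across the arrays 60.9% to 74.8% of spots were well above background in a channel, and the Cy5 channels had 586 and 428 saturated spots, against 0 and 2 in Cy3.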

How the data were processed

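Total RNA of 2 pubertal and 2 infant cultures was hybridised in 2 dye-swapped pairs, each from different animals, on the same slide and in the same scan, which leaves no batch to test. The submitters' processing notes name Agilent Feature Extraction 9.5.1.1. The deposited scanner files hold raw mean and local background intensities, the scanner's background-subtracted and dye-normalized intensities, and log10 ratios (Cy5 over Cy3), per the file headers. Flags for saturation, outliers and signal above background stand beside them. The authors' deposited table gives log2 ratios for 4848 probes, whose normalization is not given in the sources used here.

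Intensities were corrected by normexp (offset 50) and loess within each array in limma 3.58.1 under R 4.3.3. Control and outlier spots had no weight, outlier spots were left out, saturated spots stayed, and spots of a probe were averaged. The offset makes ratios of dim probes smaller. The sign of array 2 was turned, so that all ratios are pubertal over infant. A probe was kept if its signal was well above background for 1 stage on both arrays, which left out 15230 probes as dim and 2 as outliers. limma (lmFit and eBayes, two-sided) rested on 1 residual and 4.33 prior degrees of freedom, and p was adjusted over all 25768 probes. Intensities per culture were scaled between arrays by limma's Aquantile method, which leaves the ratios as they are. The number of arrays limits the precision. Probe coordinates are hg17, per the file headers, and probe sequences come from the deposited scanner files. Whether a probe lies in an exon, an intron or an untranslated part was not annotated here.

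By rule, members at least 0.5 from 0 in the same direction on both arrays, and any with opposite ratios of at least 1 on both, get full values and the test, pathway genes of the first kind are named, and other members are described by class. Full values of any further member or pathway gene were chosen after they were seen. Members and lists were chosen with earlier results of these data known.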

Additional observations from a re-analysis of the deposited data

How the results depend on the processing

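No member passed the test under any of the alternatives, which were an offset of 0, the scanner's processed signals, median centring, no filter on dim probes, a stricter filter, no saturated probes, 1 probe per gene and an intensity trend. The adjusted p of GSTT2 ranged between 0.322 with the intensity trend and 1.00. Over all probes 1 passed at an offset of 0, with median centring, with the stricter filter and with the intensity trend, against 0. With median centring 2986 of all probes were above and 2644 below 0 on both arrays, and for members 2 and 5, and for pathway genes 5 and 6. With no filter on dim probes 9181 of all probes were above and 8864 below. Of the 16 member probes below 0 on both arrays 15 kept that at an offset of 0, 15 with the scanner's signals and 3 with median centring, and of the 4 above 0 the counts were 4, 4 and 1. With median centring GSTT2 was at -0.06 and -1.98, GSTA4 at 0.55 and -1.44, MGST1 at 0.51 and -1.64, MGST2 at 1.53 and -0.04 and GSTZ1 at 2.43 and -0.34. GSTO2 was then at -0.60 and -0.59 and the GSTM4 probe A_24_P396660 at -0.21 and -0.76. Relative to the medians of all probes there GSTT2, MGST1 and GSTA4 stayed below and MGST2 and GSTZ1 above on both arrays, at -0.63, -0.06, -0.02, 0.96 and 1.86 on array 1 and at -1.61, -1.27, -1.07, 0.33 and 0.03 on array 2. The mean ratios of 7 probes kept their sign in all 21 values under the 3 alternatives that recompute them. These are an offset of 0, the scanner's signals and median centring. The 7 were picked from these same data for the same sign on both arrays and a mean size of at least 0.5. Their agreement is therefore no test, and only the sign of the mean was compared. With median centring MGST1, GSTA4, MGST2, GSTZ1 and the GSTA2 probe A_24_P300394 had opposite signs on the 2 arrays. Leaving out each replicate leaves 1 array and no test. The signs on the array left then gave 12584 to 13556 of all probes above and 12212 to 13184 below 0, 11 to 19 members above and 23 to 31 below, and 25 to 30 pathway genes above and 41 to 46 below. The ratios are paired within each array, so no further pairing was fitted. The causes were not tested.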
